A study of Homo sapiens with 56 samples.

Results

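Genes that start mitochondrial apoptosis were followed through 56 RNA-seq libraries of mantle cell lymphoma cell lines. The 9 genes were chosen by symbol: the 7 BH3-only genes PMAIP1, BBC3, BIK, HRK, BMF, BAD and BID, and the 2 effector genes BAX and BAK1. All 9 were found among the 21595 named genes of the table, and all 9 passed the filter on low values. Mantle cell lymphoma is a B-cell lymphoma, and 15 libraries were of the line MINO-P, 13 of MINO-VR, 15 of JEKO-1 and 13 of Z138. The labels give MINO-P and MINO-VR as separate lines and do not say what the endings mean. Per its title, the study asked whether resistance to drugs can be overcome by inhibiting BIRC5 and MCL-1. Cells were untreated (CON, 5 libraries) or received single agents, which were CLF (6 libraries), BTZ (6), IBR (11), YM155 (4) and S63845 (6). Combinations were IBR_CLF (8), BTZ_CLF (4), IBR_YM155 (2), BTZ_YM155 (2), IBR_S63845 (1) and BTZ_S63845 (1). The labels spell out none of the codes. BTZ usually stands for bortezomib, a proteasome inhibitor, and IBR for ibrutinib, an inhibitor of BTK, while CLF is left as a code. YM155 lowers the expression of survivin, the product of BIRC5. S63845 binds the MCL-1 protein and inhibits it. Doses, times of exposure and any genetic change of the lines are not given in the sources used here.

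BH3-only proteins carry stress signals to the mitochondrion. Some bind and neutralise the protective members of the BCL2 family, such as BCL2, BCL-XL and MCL-1, and some, such as the cleaved form of BID, can also engage BAX and BAK directly. BAX and BAK then form pores in the outer mitochondrial membrane, cytochrome c leaves, and caspases are activated through the apoptosome. Several of these genes are controlled at the RNA level: PMAIP1 and BBC3 by stress factors, among them those of the ATF family, HRK in neurons deprived of growth factor, and BMF by withdrawal of survival signals. In B-cell lymphoma, the balance between BH3-only proteins and MCL-1 or BCL2 is what BH3-mimetic drugs such as S63845 act on.

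PMAIP1 and HRK are the members whose RNA was higher with BTZ, so the sequence just upstream of each start site is shown. Both are from RefSeq (GRCh38.p14), 250 bases ending at the base before the start site, on the gene's strand. Capitals mark the letters GGGCGG or TGACG on either strand (CCGCCC or CGTCA when read from the other strand).
PMAIP1 (chr18:59899746-59899995, + strand): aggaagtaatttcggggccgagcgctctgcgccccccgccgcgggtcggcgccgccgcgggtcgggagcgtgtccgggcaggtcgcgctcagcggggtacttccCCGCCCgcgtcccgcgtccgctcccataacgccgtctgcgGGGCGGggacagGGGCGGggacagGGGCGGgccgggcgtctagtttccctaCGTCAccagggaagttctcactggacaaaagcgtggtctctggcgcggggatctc
HRK (chr12:116881442-116881691, - strand): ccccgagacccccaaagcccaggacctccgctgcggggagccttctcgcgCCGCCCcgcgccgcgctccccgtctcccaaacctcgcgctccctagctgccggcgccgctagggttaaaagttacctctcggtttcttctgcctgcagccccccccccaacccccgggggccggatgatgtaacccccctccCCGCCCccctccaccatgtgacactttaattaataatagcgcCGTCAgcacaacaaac
The PMAIP1 window held 4 matches of GGGCGG and 1 of TGACG, and the HRK window held 2 and 1. Of 35116 RefSeq windows of this length, 42.6% held GGGCGG and 21.2% held TGACG. Neither window held CCAAT (in 32.0% of windows), CACGTG (6.34%), TGACGTCA (1.65%), TTCNNGAA (6.62%) or TTTCGCGC (0.439%). G and C made up 72.8% of the PMAIP1 window and 66.4% of the HRK window, against a median of 58% over the windows. Such matches describe letters in a window and are not sites. RefSeq windows were matched by symbol for 8 members, with 14 windows in all, and BIK had no entry in the table used. GGGCGG lay in windows of 7 members and TGACG in windows of 5.

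The libraries differed in ways that touch these genes. Their depth, as recovered from the table, ran from 5.54 to 21.6 M reads around a median of 16.0 M. Genes encoded by the mitochondrial genome held 1.91% to 80.5% of a library's CPM (median 6.69%). They held over 50% in 6 libraries, all of JEKO-1: replicates 1 and 2 of BTZ, of BTZ_CLF and of IBR_CLF. CPM are counts scaled so that a library sums to 1000000. All levels below are CPM of nuclear-encoded genes alone, rescaled to the same sum and called nuclear CPM. JEKO-1 BTZ replicate 3 stood apart. In it, 670 genes were listed at 0 whose median in the other JEKO-1 libraries was at least 10 nuclear CPM, against 38 in the next library and a median of 0. BBC3, BIK, BAD and BAK1 were listed at 0 there, so the main member results for BTZ against CON are given with and without it. Other results with BTZ or JEKO-1 include this library unless stated. Of the B-cell genes, MS4A1 was at 206 nuclear CPM or more in every library, CD79A at 26.6, PAX5 at 13.1 and CD79B at 11.3 or more, and CCND1 was at 207 or more. CD5, which many mantle cell lymphomas carry, reached no more than 0.485 in Z138. The T-cell genes CD3D, CD3E and CD3G summed to at most 11.2 nuclear CPM and 3 myeloid genes to at most 13.5. Of 4 epithelial and fibroblast genes, COL1A1 reached 74.8 in Z138. The labels do not say whether libraries of one group came from separate cultures, so the spread between them may be technical. Of 37 groups of line and treatment, 22 held 1 library. Apart from the tests of a difference between lines, fits over several lines gave a treatment the same effect in each line. The spread behind their p-values therefore also holds differences of that effect between lines. In bulk RNA, fewer cells with a transcript and less transcript per cell cannot be told apart.

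Per length, PMAIP1 was the most abundant member and HRK the least. Levels between genes were compared as nuclear CPM per kilobase of exon in the 5 untreated libraries. PMAIP1, which encodes NOXA, a partner of MCL-1, was at 121 ± 66.0 (SD, n = 5). The pore-forming BAK1 was at 22.1 ± 12.5 and BAX at 22.1 ± 10.2 (n = 5 each). BMF followed at 16.4 ± 6.57, BID, the link from death receptors to the mitochondrion, at 15.6 ± 9.64, and BAD at 15.4 ± 3.10. BBC3, which encodes PUMA, was at 8.37 ± 4.76 and BIK at 7.84 ± 4.30. HRK, which encodes Harakiri, was at 0.710 ± 0.480. The lowest PMAIP1 value (70.1) lay above the highest of any other member (34.7), and the highest HRK value (1.48) lay below the lowest of BIK (2.59). The 7 members between them had ranges that overlapped from one to the next, so their order was within the spread. With exon lengths from the basic transcripts alone, an alternative added after seeing the data, BAX stood at 40.5 ± 18.6, BID at 24.8 ± 15.3 and BBC3 at 12.7 ± 7.23 (n = 5 each), more than 1.5 times their values above. PMAIP1 stayed apart at the top under these lengths (lowest value 74.6, highest of any other member 62.0) and HRK at the bottom (highest value 1.75).

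Over the 56 libraries, HRK had the widest range relative to its middle, 0.378 to 165 nuclear CPM with a median of 9.19. PMAIP1 ran from 107 to 907 (median 296), BMF from 20.2 to 435 (median 94.8) and BID from 8.25 to 140 (median 47.3). BAX ran from 15.3 to 114 (median 49.3). BBC3 reached 132, BAK1 89.1, BAD 63.5 and BIK 14.2, and each was listed at 0 in at least 1 library. The reads behind a value were few for BIK (median 31.5 recovered reads) and HRK (median 112), and many for PMAIP1 (median 3454).

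**Figure D1:**
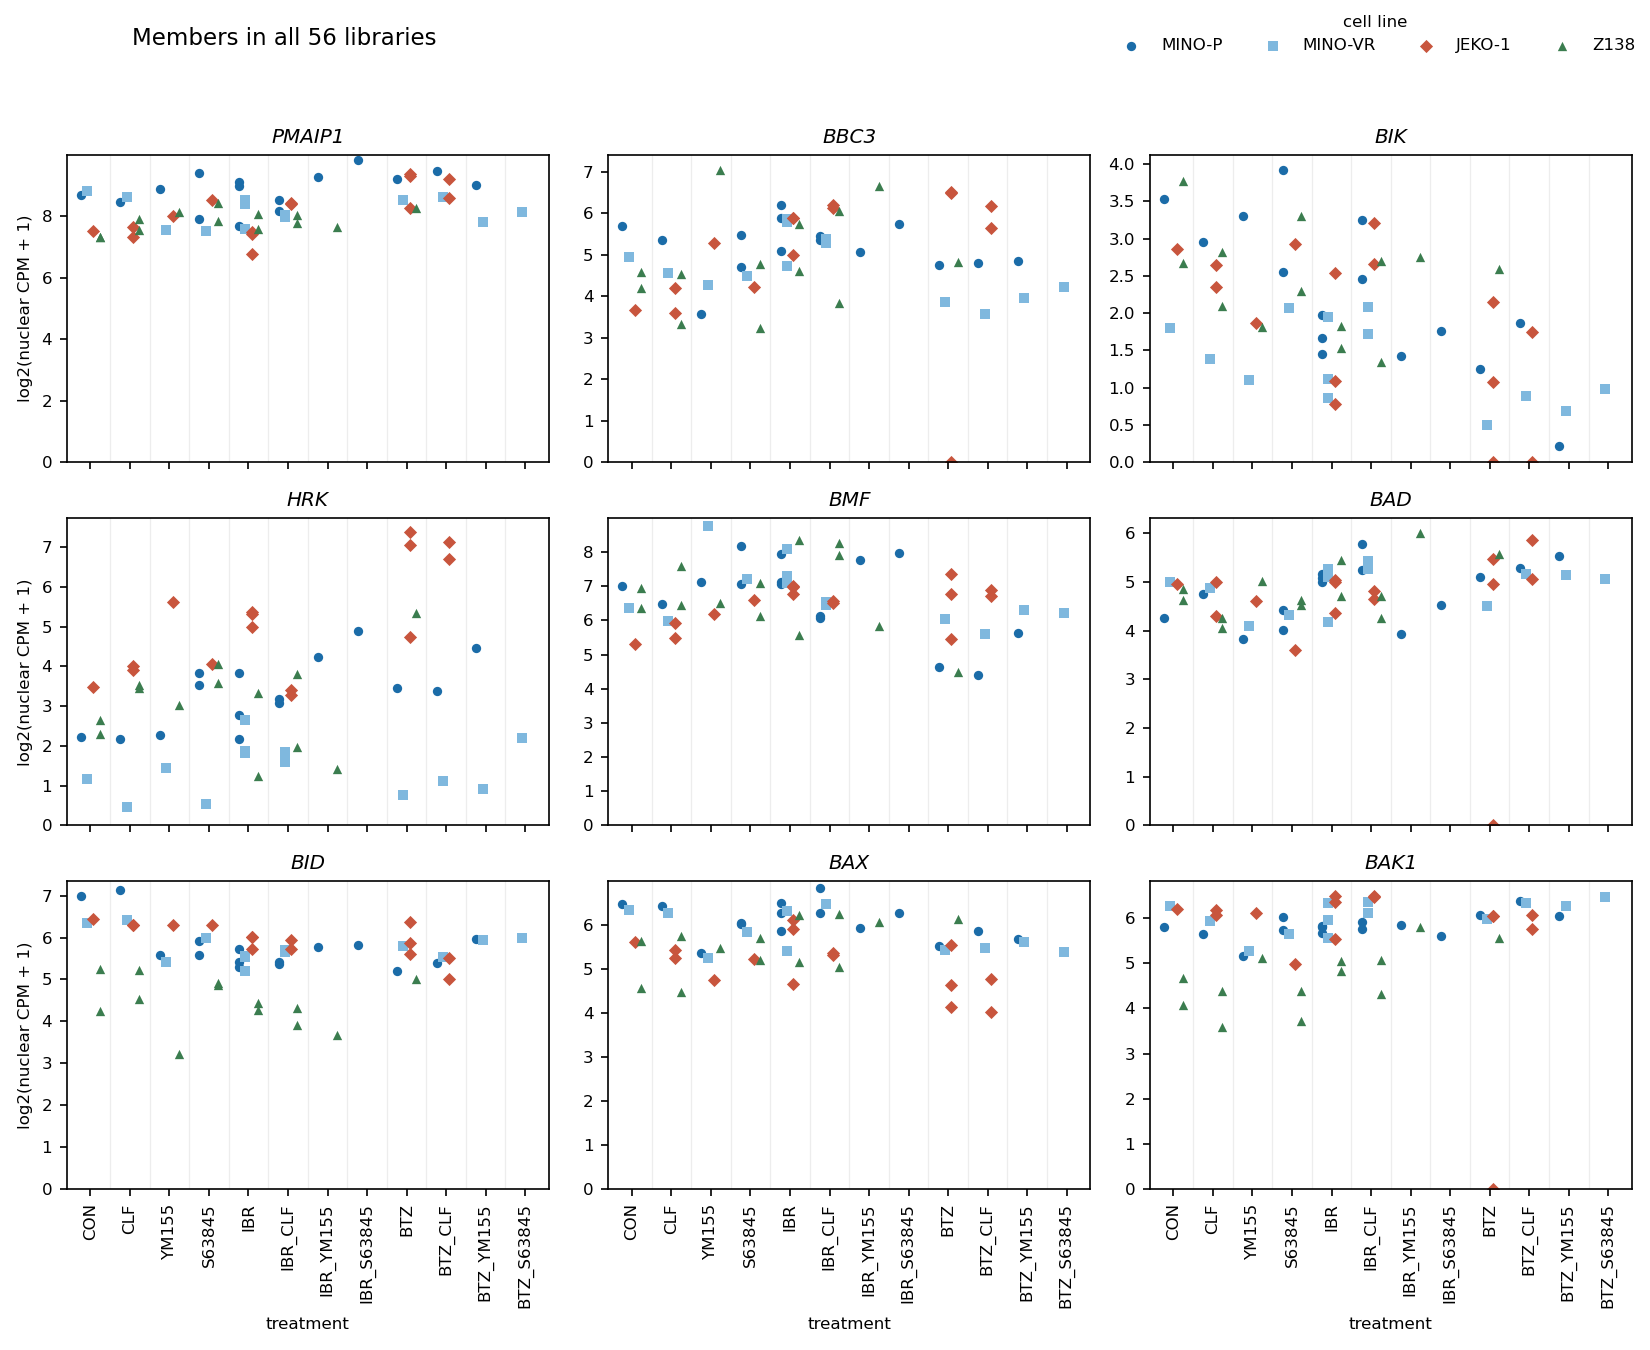
Level of each member as log2(nuclear CPM + 1) in every library (1 point each), by treatment on the x axis and cell line by colour and shape. In JEKO-1, 4 of the 5 libraries with BTZ or BTZ_CLF hold the highest HRK values (103 to 165 nuclear CPM), the other BTZ library is at 25.7, and points on the lower axis are values listed at 0.

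With BTZ, PMAIP1 and HRK rose and BIK fell. In JEKO-1, PMAIP1 was at 628, 652 and 308 nuclear CPM with BTZ against 180 without. In Z138 it was at 307 against 157 and 157, and in MINO-P at 582 against 412. MINO-VR went the other way, 366 against 451. The BTZ library thus lay above the untreated ones in 3 of 4 lines, and across lines the groups overlapped. HRK stood at 165, 131 and 25.7 nuclear CPM with BTZ in JEKO-1, against 10.1 untreated. Z138 had 39.5 against 5.33 and 3.96, and MINO-P 9.96 against 3.64. In MINO-VR both values were low, 0.712 with BTZ and 1.26 without. HRK was therefore higher in the same 3 lines as PMAIP1. BIK, a BH3-only gene found largely at the endoplasmic reticulum as a protein, was lower in 4 of 4 lines. Its values were 1.38 against 10.5 in MINO-P, 0.415 against 2.47 in MINO-VR and 5.06 against 5.39 and 12.7 in Z138. JEKO-1 had 3.43, 1.11 and a value listed at 0, against 6.28. The 1.11, of replicate 2, was below the 1.66 nuclear CPM that 3 reads made up there.

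Over all lines the fitted log2 fold change of PMAIP1 with BTZ was 0.90, with an SE of 0.31 (limma, adjusted p = 0.0336), and values after ± are SEs for fold changes. HRK had 1.82 ± 0.54 (adjusted p = 0.0129) and BIK -1.63 ± 0.41 (adjusted p = 0.00372, all from limma). These 3 of 9 members stand beside 18.6% of all 17203 genes tested in the same comparison (3204 genes). The median log2 fold change was -0.36 over the 9 members and -0.17 over all genes. Of the 3204 genes, 838 were higher, against 1352 of 3231 with median-of-ratios size factors and 288 of 3966 with CPM as deposited. Size factors moved the median of all genes to -0.07 and deposited CPM to -0.42. Over the other treatment and line comparisons, deposited CPM put that median between -0.75 (BTZ_CLF against CLF) and 0.37 (BTZ_YM155 against BTZ). BID, at -0.60 ± 0.23 (adjusted p = 0.0656), missed the threshold, and the other 5 had adjusted p-values of 0.442 to 0.847.

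Without JEKO-1 BTZ replicate 3 the values were 0.97 for PMAIP1 (adjusted p = 0.0198), 2.10 for HRK (0.00289) and -1.39 for BIK (0.0101). BID then passed as well, at -0.68 (limma, adjusted p = 0.026), and BBC3, BAD and BAK1 went from -0.25, -0.35 and -0.67 to 0.58, 0.41 and 0.26, none of them called. The PMAIP1 call held in 14 of 27 alternatives, that of HRK in 22 of 27 and that of BIK in 25 of 26. PMAIP1 lost its call with CPM as deposited (0.52, adjusted p = 0.216), without JEKO-1 (0.46, adjusted p = 0.387), without Z138 (0.72, adjusted p = 0.261), with array weights (0.64, adjusted p = 0.0737) and without the libraries over 50% mitochondrial (0.55, adjusted p = 0.211). Leaving out 1 library also ended it for MINO-P CON, JEKO-1 CON, JEKO-1 BTZ replicate 1 or 2 and Z138 CON replicate 1 or 2 (adjusted p = 0.0561 to 0.0964). HRK lost its call without JEKO-1 (1.42, adjusted p = 0.112), without Z138 (1.45, adjusted p = 0.125), without the libraries over 50% mitochondrial (1.28, adjusted p = 0.101) and without JEKO-1 CON (1.52, adjusted p = 0.0693). Averaging libraries whose names differ only by a final a or A ended both calls, with PMAIP1 at 0.70 (limma, adjusted p = 0.183) and HRK at 1.55 (adjusted p = 0.0658). With only the 8 pairs outside Z138 averaged, PMAIP1 was at 0.77 (adjusted p = 0.0894) and HRK kept its call. The mitochondrial share in JEKO-1 was 67.6%, 67.5% and 9.92% with BTZ against 1.91% untreated. HRK followed that split, at 165 and 131 in the first pair and 25.7 in the third library, and its part in the result was not tested. In Z138 the share was 4.11% in the 1 BTZ library, with HRK at 39.5, against 3.92% and 3.43% untreated. That library listed 30 genes at 0 whose median in the other Z138 libraries was at least 10 nuclear CPM. In Z138, too, the part of the share was not tested.

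**Figure D2:**
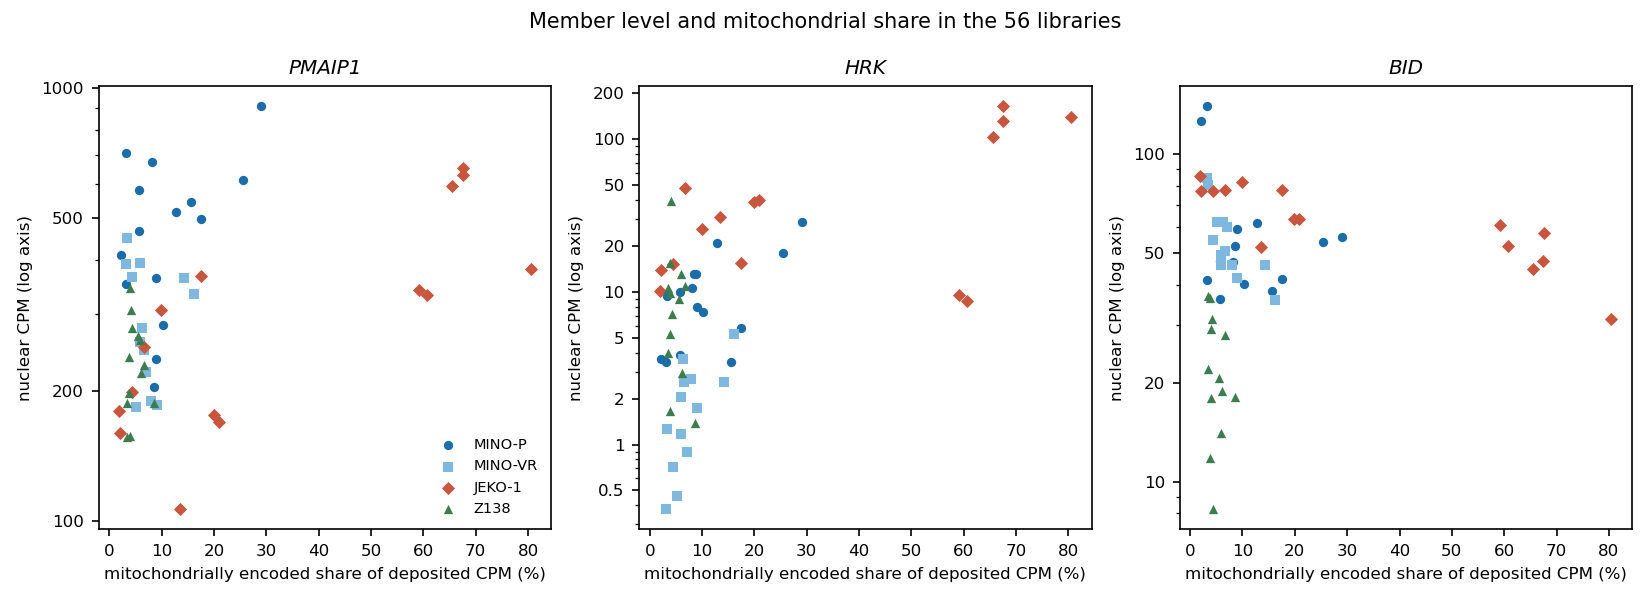
Nuclear CPM (log axis) of PMAIP1, HRK and BID against the mitochondrially encoded share of deposited CPM in percent, 1 point per library, coloured by cell line. The 6 libraries over 50% are all JEKO-1, and among them HRK is high with BTZ and BTZ_CLF (103 to 165) and low with IBR_CLF (8.73 and 9.51).

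Library names formed 2 series. HK held the 8 libraries of MINO-P and MINO-VR under CON, BTZ, CLF or BTZ_CLF, and MCL held 48. Within the HK series, BTZ minus CON of PMAIP1 was 0.50 in MINO-P and -0.30 in MINO-VR on the log2 scale. HRK differed by 1.24 and -0.40, and BIK by -2.28 and -1.29, with 1 library on each side. Within the MCL series, a fit of JEKO-1 and Z138 gave 1.40 for PMAIP1 (limma, adjusted p = 0.0111) and 2.78 for HRK (adjusted p = 0.0115). BIK had -1.61 there (adjusted p = 0.108) and was no longer called.

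The BTZ response was tested for a difference between the lines, and no member passed (F-test in limma, 0 of 9, with 0.291% of all genes called). BMF, a BH3-only gene tied to the cytoskeleton, came nearest, with an unadjusted p of 0.0106 and an adjusted p of 0.419. It was at 164, 108 and 42.9 nuclear CPM with BTZ in JEKO-1 against 38.4 untreated. In MINO-P it was at 23.9 against 126, in Z138 at 21.4 against 121 and 80.9, and in MINO-VR at 65.4 against 80.4. JEKO-1 thus lay above its control and the other 3 lines below theirs. BID had an unadjusted p of 0.0228 (adjusted p = 0.568). It was at 36.1 against 126 in MINO-P and at 31.4 against 18.0 and 36.9 in Z138. With array weights, BBC3, HRK, BMF and BID were called in this test, beside 8.09% of all genes under the same weights. Without the libraries over 50% mitochondrial BAD, BID and BAK1 were called beside 26.8% of all genes, with JEKO-1 then represented by replicate 3 alone, where BAD and BAK1 are listed at 0.

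With IBR, BIK was on average lower in each of the 4 lines. Its nuclear CPM was 2.17, 2.94 and 1.73 in MINO-P against 10.5 untreated, and 0.713, 1.13 and 4.81 in JEKO-1 against 6.28. Z138 had 1.90 and 2.56 against 5.39 and 12.7. In MINO-VR the values of 2.87, 1.16 and 0.814 lay on both sides of the 2.47 untreated. The fitted log2 fold change was -1.41 ± 0.40 (limma, adjusted p = 0.0181). It was the 1 member of 9 called, where 10.8% of all genes were. BID was at -0.63 ± 0.23 (adjusted p = 0.0665), below its control in 4 of 4 lines, with log2 differences of -1.51 in MINO-P to -0.40 in Z138. BBC3 was above its control in 4 of 4 lines, by 0.04 to 1.92. Its values were 58.3, 58.1 and 30.7 nuclear CPM in JEKO-1 against 11.8, and 23.3 and 52.9 in Z138 against 17.4 and 23.0. Its fitted value was 1.09 ± 0.66 (limma, adjusted p = 0.318), which did not pass. Without the libraries over 50% mitochondrial, none of which had IBR alone or CON, BBC3 passed at 1.57 (adjusted p = 0.0434), beside 13.9% of all genes. The 8 members not called as reported had fitted values of -0.63 to 1.09 and adjusted p-values of 0.0665 to 0.948. In MINO-P and MINO-VR the untreated libraries belong to the HK series and the IBR libraries to the MCL series, so there the series and IBR cannot be told apart. In JEKO-1 and Z138 alone, all of the MCL series, BIK had -1.52 (limma, adjusted p = 0.215). The BIK call was also lost without Z138 CON replicate 2 (-1.21, adjusted p = 0.0897), without Z138 (-1.18, adjusted p = 0.189) or without MINO-P (-1.32, adjusted p = 0.0822), and with a pseudocount of 0.1 (-1.67, adjusted p = 0.131). Between JEKO-1 and Z138 the IBR response differed in 0 of 9 members (0.0233% of all genes), and HRK had the smallest p, 0.0886 unadjusted.

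Fitted changes of the members with BTZ and IBR, each also on top of CLF, are set side by side in a plot. The BTZ and IBR comparisons share their CON libraries, and the other pair share their CLF libraries.

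**Figure D3:**
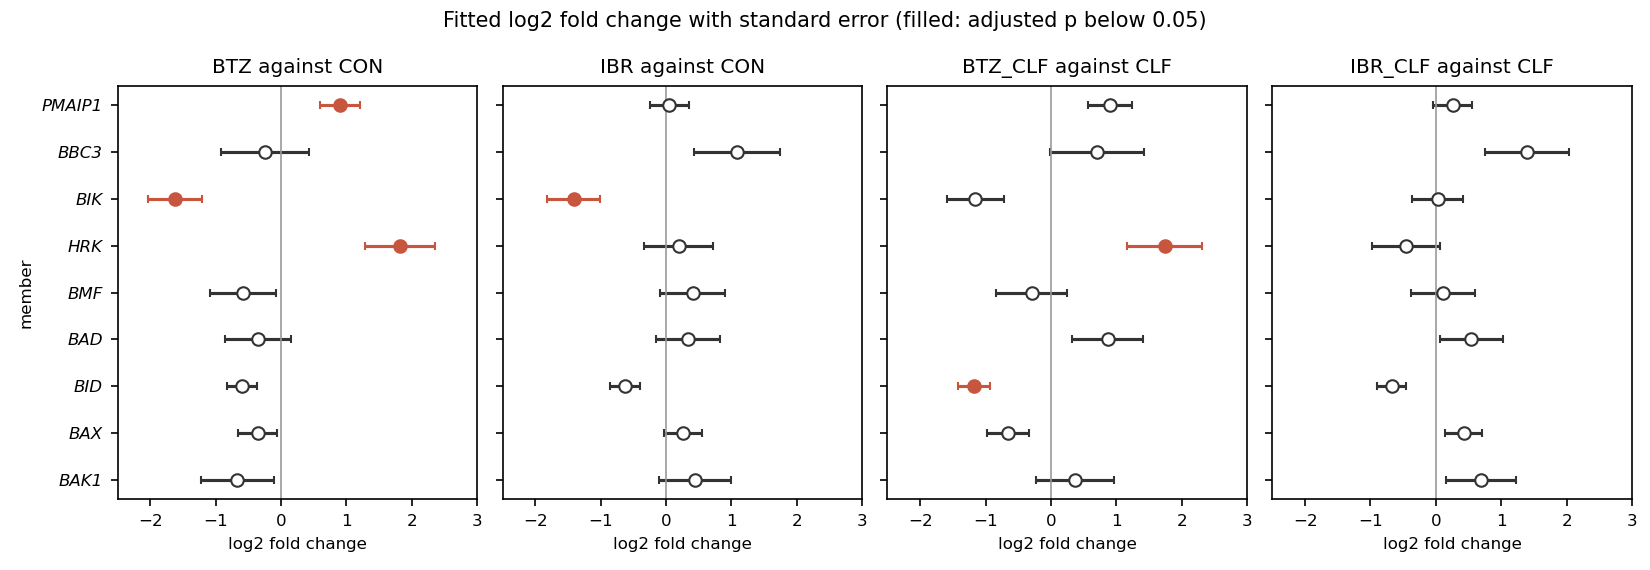
Fitted log2 fold change (point) and its standard error (bar) of the 9 members in 4 comparisons, filled in red where the adjusted p from limma is below 0.05. BIK is called with BTZ (-1.63) and with IBR (-1.41), and HRK with BTZ (1.82) and with BTZ_CLF (1.74).

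CLF alone left no member called against CON (0 of 9, where 0% of all genes were called, 62 of them at an unadjusted p under 0.05 and 4 called with array weights). The largest difference was that of BIK, -0.55 ± 0.41 (limma, unadjusted p = 0.186), which was below its control in 4 of 4 lines. In JEKO-1, for one, BIK was at 4.11 and 5.29 nuclear CPM with CLF against 6.28.

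On top of CLF, BTZ gave a higher HRK and a lower BID. HRK was at 139 and 103 nuclear CPM with BTZ_CLF in JEKO-1, against 14.0 and 15.2 with CLF. It was at 9.35 against 3.49 in MINO-P and 1.17 against 0.378 in MINO-VR. All 3 lines with both treatments moved the same way. Its fitted log2 fold change was 1.74 ± 0.58 (limma, adjusted p = 0.0316). BID was at 31.3 and 44.6 against 77.5 and 77.4 in JEKO-1, 41.2 against 140 in MINO-P and 45.8 against 84.4 in MINO-VR. BTZ_CLF lay below CLF in each of these lines. The 2 libraries on each side did not overlap in JEKO-1, and MINO-P and MINO-VR had 1 on each side. The fitted value was -1.18 ± 0.25 (adjusted p = 0.00089). These 2 of 9 members stand beside 16% of all genes (2759, of which 955 higher, against 1290 of 2704 with size factors and 230 of 6693 with deposited CPM). PMAIP1 had 0.90 ± 0.33 (adjusted p = 0.0528) and BIK -1.15 ± 0.44 (adjusted p = 0.0659), and the 7 members not called had adjusted p-values of 0.0528 to 0.779. HRK lost its call without any of JEKO-1 CLF replicates 1 and 2 and BTZ_CLF replicates 1 and 2 (adjusted p = 0.0681 to 0.135), without JEKO-1 (0.80, adjusted p = 0.549) and with CPM as deposited (0.83, adjusted p = 0.213). Both JEKO-1 BTZ_CLF libraries held 80.5% and 65.5% mitochondrial CPM, and without the libraries over 50% BID was at -1.02 (adjusted p = 0.0608) and HRK at 0.79 (adjusted p = 0.626). Within the MCL series, in JEKO-1 and Z138, HRK had 2.56 (limma, adjusted p = 0.0588) and BID -1.13 (adjusted p = 0.106), and no member was called. Z138 has no BTZ_CLF library, so the BTZ_CLF side of that fit was JEKO-1 alone.

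Adding CLF to BTZ changed no member beyond the threshold (BTZ_CLF against BTZ, 0 of 9, where 0.0698% of all genes were called). BAD, whose protein is held inactive by phosphorylation, had the largest estimate, 1.07 ± 0.54 (adjusted p = 0.667). Without JEKO-1 BTZ replicate 3, in which it is listed at 0, it was 0.25.

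IBR on top of CLF also left 0 of 9 members called (IBR_CLF against CLF, 7.06% of all genes, of which 500 of 1214 higher, against 150 of 814 with deposited CPM). BID had -0.67 ± 0.22 (limma, adjusted p = 0.0542) and BBC3 1.39 ± 0.64 (adjusted p = 0.18), and the highest adjusted p of the 9 was 0.98. Leaving out 1 library moved the 1214 genes called by more than 1.5 times in 6 of 14 fits, to between 537 (without JEKO-1 CLF replicate 1) and 2291 (without Z138 IBR_CLF replicate 1). BBC3 stood at 69.4 and 72.3 nuclear CPM with IBR_CLF in JEKO-1 against 11.1 and 17.4 with CLF, but at 43.1 and 40.0 against 40.0 in MINO-P. The MINO-P library with CLF is of the HK series and those with IBR_CLF of the MCL series. The series and IBR cannot be told apart there.

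Adding CLF to IBR left 0 of 9 members called over the lines together (IBR_CLF against IBR, 0% of all genes, 1679 at an unadjusted p under 0.05 and 596 called with array weights). BIK had the smallest p, at 0.89 ± 0.31 (limma, adjusted p = 0.315). It was higher with IBR_CLF in MINO-P, at 4.50 and 8.56 nuclear CPM against 2.17, 2.94 and 1.73, and in JEKO-1, at 8.27 and 5.33 against 0.713, 1.13 and 4.81. In those lines the values did not overlap. In Z138 they did, 5.49 and 1.55 against 1.90 and 2.56, and in MINO-VR 2.30 and 3.23 overlapped 2.87, 1.16 and 0.814.

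In JEKO-1 the CLF addition went with lower HRK and BMF and higher PMAIP1. HRK was at 8.73 and 9.51 nuclear CPM with IBR_CLF against 40.3, 38.6 and 30.9 with IBR. BMF was at 89.6 and 93.6 against 129, 108 and 126, and PMAIP1 at 333 and 342 against 170, 176 and 107. None of the 3 pairs of groups overlapped. MINO-P had overlapping HRK values, 7.38 and 7.99 against 5.82, 3.48 and 13.1, and lower BMF, 68.5 and 66.3 against 132, 139 and 244. BMF was lower in MINO-VR too, at 87.3 and 92.1 against 134, 155 and 271. Z138 had overlapping BMF values, 239 and 306 with IBR_CLF against 46.9 and 327 with IBR. Whether the CLF addition differed between the lines was tested over the 19 libraries of IBR and IBR_CLF, and 0 of 9 members were called where 3.22% of all genes were. The unadjusted p-values were 0.0354 for BMF, 0.0545 for PMAIP1 and 0.0608 for HRK (limma F-test, adjusted p = 0.258, 0.317 and 0.334). Without Z138 IBR replicate 2, whose BMF of 327 nuclear CPM faced 46.9 in replicate 1, BMF passed (adjusted p = 0.000974), and the share of all genes called rose with it, from 3.22% to 12.2%. The 507 genes called became 1913 there and 103 without JEKO-1 IBR_CLF replicate 1, and moved by more than 1.5 times in 8 of the 19 fits that left out 1 library. The mitochondrial share in JEKO-1 was 60.7% and 59.1% with IBR_CLF and 13.5% to 20.9% with IBR, and its part was not tested.

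YM155 left 0 of 9 members called against CON (1.15% of all genes, of which 127 of 197 higher, against 100 of 191 with size factors). The 197 genes called became 9 without the 1 Z138 YM155 library, 50 without JEKO-1 CON, 63 and 99 without Z138 CON replicate 2 or 1, 74 without MINO-P CON and 108 without JEKO-1 YM155. BID had -0.78 ± 0.27 (limma, adjusted p = 0.142) and BIK -0.93 ± 0.48 (adjusted p = 0.371), each below its control in 4 of 4 lines, and the 9 members had adjusted p-values of 0.142 to 0.977. BBC3 went in opposite directions in the lines. It was at 132 nuclear CPM with YM155 in Z138 against 17.4 and 23.0, and at 38.3 in JEKO-1 against 11.8. In MINO-P it was at 10.9 against 50.8 and in MINO-VR at 18.3 against 30.0. Both MINO lines have untreated libraries of the HK series and a YM155 library of the MCL series. The series and YM155 cannot be told apart in them, for any member. This also holds for the test of a difference between lines, which had no series term. The Z138 value was the highest BBC3 level of the 56 libraries, and the next was 100 with IBR_YM155 in the same line. The name of the Z138 YM155 library ends in A, a suffix whose libraries had more BBC3 than their partners in 5 of 5 Z138 pairs, and that of the IBR_YM155 library does not. Against the untreated library with the same suffix (23.0) the log2 difference was 2.47, and against the other 2.85. The log2 differences ran from -2.12 in MINO-P to 2.66 in Z138, but each rests on 1 treated library. The test of a difference between lines gave BBC3 an unadjusted p of 0.193 and called 0 of 9 members, with 0.0639% of all genes called, and BBC3 was called in it with array weights (adjusted p = 0.00583), beside 7.35% of all genes. BMF with YM155 was at 435 in MINO-VR against 80.4, its highest level in any library, and at 139 against 126 in MINO-P.

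S63845, which blocks the protein that PMAIP1 binds, left 0 of 9 members called (0% of all genes, 428 at an unadjusted p under 0.05, and 0 with array weights). PMAIP1 had 0.36 ± 0.33 (limma, unadjusted p = 0.282), the highest of the 9, and the lowest value was -0.40. It was at 368 nuclear CPM in JEKO-1 against 180, and at 229 and 345 in Z138 against 157 and 157. MINO-P had 674 and 237 around its 412, and MINO-VR 183 against 451. PMAIP1 was thus above control in JEKO-1 and Z138 and not in the MINO lines. In MINO-P and MINO-VR the untreated libraries are of the HK series and the S63845 libraries of the MCL series. The series and S63845 cannot be told apart there. YM155 against S63845 likewise called 0 of 9 members (0.0116% of all genes), with BID at -0.60 ± 0.25 (adjusted p = 0.402).

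The combinations with YM155 rest on 2 libraries each, and none called a member. IBR_YM155 was compared with IBR (0% of all genes, 910 at an unadjusted p under 0.05, and 0 with array weights) and with YM155 (0%, 352 and 0). The 9 members lay between -0.44 and 0.44 in the first of these and between -0.34 and 0.75 in the second. BTZ_YM155 was compared with BTZ (0.477% of all genes, of which 66 of 82 higher, against 147 of 152 with deposited CPM and 45 of 82 with size factors) and with YM155 (0.552%). The smallest p of a member was that of BIK for BTZ_YM155 against YM155, -1.50 ± 0.59 (limma, adjusted p = 0.295). BIK was at 0.167 nuclear CPM with BTZ_YM155 in MINO-P against 8.88 with YM155, and at 0.612 against 1.16 in MINO-VR. The 0.167 was below the 0.251 nuclear CPM that 3 reads made up in that library. IBR_S63845 in MINO-P gave the highest PMAIP1 of the series, 907 nuclear CPM, beside 204 to 545 with IBR and 237 and 674 with S63845. HRK in that library was at 28.8, the highest in MINO-P. BTZ_S63845 in MINO-VR had PMAIP1 at 280 and HRK at 3.62. These last 2 treatments have 1 library each and no test.

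MINO-VR had less HRK, BIK and PMAIP1 than MINO-P. They were compared over the 9 treatments that both lines received. HRK was lower in MINO-VR in 9 of 9 treatments, with log2 differences of -3.53 to -0.80. With S63845, for one, it was at 0.463 nuclear CPM in MINO-VR against 10.6 and 13.2 in MINO-P, and with BTZ_YM155 at 0.890 against 20.9. BIK was lower in 8 of 9, at 2.47 against 10.5 untreated and 1.16 against 8.88 with YM155. BTZ_YM155 was the exception, with 0.612 against 0.167, the latter below the 0.251 nuclear CPM that 3 reads made up there. PMAIP1 was lower in 7 of 9. It was at 186 against 468 with YM155, and the 2 exceptions were CON (451 against 412) and CLF (391 against 353).

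The fitted log2 fold changes were -1.74 ± 0.26 for HRK (limma, adjusted p = 5.46e-05), -0.92 ± 0.22 for BIK (0.00413) and -0.59 ± 0.19 for PMAIP1 (0.0264). These 3 of 9 members, all lower, stand beside 23.5% of all 14807 genes. The median was -0.16 over the members and 0.03 over all genes. BBC3, lower in 8 of 9 treatments, had -0.46 ± 0.17 (adjusted p = 0.0567) and missed the threshold. BAX was lower in 9 of 9, by 0.07 to 0.40 on the log2 scale, with a fitted -0.16 ± 0.11 (adjusted p = 0.285). BMF, BAD, BID and BAK1 had adjusted p-values of 0.208 to 0.965. HRK and BIK kept their calls in each alternative that could be fitted (35 and 34). PMAIP1 lost its call in 9 of 35, among them the fits without MINO-P or MINO-VR YM155, BTZ_YM155 or BTZ_CLF (adjusted p = 0.0509 to 0.0595). Over the 9 shared treatments the mitochondrial share was at most 17.5% in MINO-P and 16.1% in MINO-VR.

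**Figure D4:**
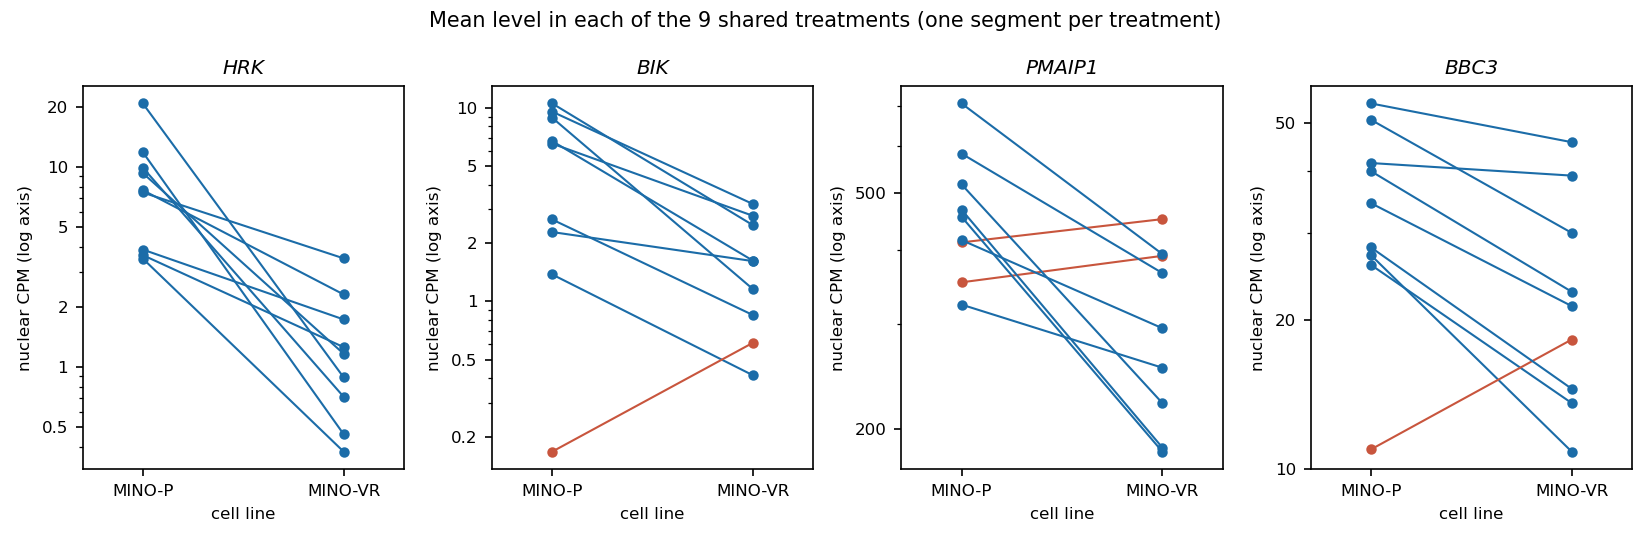
Mean nuclear CPM (log axis) of 4 members in MINO-P and MINO-VR, 1 segment for each of the 9 treatments found in both, blue where MINO-VR is lower and red where it is higher. All 9 HRK segments fall, as do 8 of BIK, 7 of PMAIP1 and 8 of BBC3.

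BID was low in Z138. Over all treatments it had a median of 20.7 nuclear CPM in Z138 (range 8.25 to 36.9, 13 libraries). The medians were 63.3 in JEKO-1 (31.3 to 85.7), 47.3 in MINO-P (36.1 to 140) and 50.7 in MINO-VR (35.8 to 84.4). The upper end of Z138 reached the lowest values of the other lines. With treatment and series in the fit, Z138 differed from MINO-P by -1.33 ± 0.17 on the log2 scale (limma, adjusted p = 6.42e-09) and from JEKO-1 by -1.67 ± 0.15 (adjusted p = 3.42e-13). Both calls held in each alternative fitted (41 and 42). BAK1 was also lower in Z138, with a median of 24.5 (11.1 to 55.2) against 66.2 in JEKO-1, where the values outside JEKO-1 BTZ replicate 3 were 30.9 to 89.1. It fell by 1.10 ± 0.36 against JEKO-1 (adjusted p = 0.00913). Against MINO-P, with a BAK1 median of 55.4, it was at -0.86 ± 0.40 (adjusted p = 0.0806). The BAK1 call against JEKO-1 held in 36 of 42 alternatives, with a highest adjusted p of 0.206 from limma. Among the settings that ended it were CPM as deposited (-0.59, adjusted p = 0.134) and leaving out the libraries over 50% mitochondrial (-0.75, adjusted p = 0.119). Without JEKO-1 BTZ replicate 3 the BAK1 difference was -1.39 (adjusted p = 4.17e-10).

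HRK was highest in JEKO-1, with a median of 30.9 nuclear CPM (8.73 to 165), against 9.35 in MINO-P (3.48 to 28.8), 9.03 in Z138 (1.38 to 39.5) and 1.73 in MINO-VR (0.378 to 5.28). The fitted log2 fold change was 1.13 ± 0.40 for JEKO-1 against MINO-P (limma, adjusted p = 0.0204) and -1.55 ± 0.35 for Z138 against JEKO-1 (adjusted p = 0.000217). The difference between Z138 and MINO-P did not pass (-0.42 ± 0.38, adjusted p = 0.423). The call of JEKO-1 against MINO-P held in 37 of 43 alternatives. Settings that ended it included leaving out MINO-P or JEKO-1 YM155 (adjusted p = 0.0529 and 0.0597). CPM as deposited (0.76, adjusted p = 0.107) also ended it, as did averaging the name pairs, all or only those outside Z138.

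PMAIP1 was higher in MINO-P, with a median of 499 nuclear CPM (204 to 907), than in JEKO-1 (308, range 107 to 652) and Z138 (229, range 157 to 345). It differed by -0.63 ± 0.23 in JEKO-1 (limma, adjusted p = 0.0231) and by -0.78 ± 0.22 in Z138 (adjusted p = 0.0037). The JEKO-1 difference was called in 39 of 43 alternatives. It was not called without MINO-P IBR replicate 2 (adjusted p = 0.0519) or JEKO-1 IBR replicate 3 (adjusted p = 0.0747). Averaging the name pairs, all or only those outside Z138, also ended the call. BAX, too, was higher in MINO-P, with a median of 65.4 (39.8 to 114) against 37.03 in JEKO-1 (15.3 to 68.3) and 48.4 in Z138 (21.3 to 74.5). JEKO-1 was at -0.76 ± 0.22 (adjusted p = 0.00427), and Z138 at -0.52 ± 0.21 (adjusted p = 0.0455), a call kept in 20 of 41 alternatives. Leaving out any one of 14 libraries ended it: in MINO-P these were CON, CLF, BTZ_CLF, both S63845, both IBR_CLF and IBR replicates 1 and 2, and in Z138 replicate 1 of CON, IBR, CLF, S63845 and IBR_CLF (adjusted p = 0.052 to 0.114). Each line comparison called 3 of 9 members, beside 39.1% of all genes for JEKO-1 against MINO-P, 39.3% for Z138 against MINO-P and 54.5% for Z138 against JEKO-1. The members' shares were thus near or below the background. Deposited CPM turned the split of calls, from 3915 higher of 6725 to 1987 of 6156 for JEKO-1 against MINO-P, and from 4425 of 9377 to 6672 of 9491 for Z138 against JEKO-1.

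A fit of Z138 alone was made because its 2 untreated libraries and its treated libraries share a series. It held treatment alone, without the suffix of the library names, and no member was called in 5 comparisons. They were IBR against CON (0% of 14120 genes, 2748 at an unadjusted p under 0.05), CLF against CON (0%, 108) and S63845 against CON (0%, 156). The others were IBR_CLF against IBR (0%, 202) and IBR_CLF against CLF (0%, 817), and array weights called no gene in any of the 5. Without Z138 IBR replicate 2, IBR against CON called 676 of 13957 genes, and without Z138 IBR_CLF replicate 1, IBR_CLF against CLF called 38. The smallest p of a member was that of PMAIP1 with S63845, 0.84 ± 0.31 (limma, unadjusted p = 0.0221). Libraries whose names end in A were higher than their partners for BAX in 5 of 5 pairs, by 0.50 to 1.26 on the log2 scale, and for BBC3 by 0.38 to 2.20. With this suffix as a replicate block, IBR against CON called 703 genes in Z138, none of them a member, and BIK was at -1.54 (limma, adjusted p = 0.121).

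Other genes of the pathway came from 5 lists of 41 genes, 39 of them tested. The exceptions were BOK, a BAX-like gene, and BCL2L11, which encodes the BH3-only protein BIM and reached at most 1.37 nuclear CPM. BTZ results of the pathway genes include JEKO-1 BTZ replicate 3 and are not given without it. Beside the counts that follow, 18.6% of all genes were called with BTZ, 10.8% with IBR and 1.15% with YM155. Among 6 protective BCL2 family genes, 1 fell with BTZ and 0 rose: BCL2L1, which encodes BCL-XL, at -1.62 ± 0.44 (limma, adjusted p = 0.0068). MCL1 and BCL2 were not called with BTZ, IBR or YM155. BCL2L13, a BCL2-like mitochondrial gene, rose with BTZ (1.21 ± 0.30), the 1 gene called of 4 tested in the list of other BCL2-related genes. Of 8 apoptosome and caspase genes, 1 rose and 2 fell with BTZ. The 2 that fell were CYCS, cytochrome c, (-0.66 ± 0.21) and HTRA2, a protease that antagonises inhibitors of apoptosis (-1.22 ± 0.31). With IBR, 0 rose and 1 fell, CYCS at -0.81 ± 0.21 (adjusted p = 0.0074).

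Of 9 transcription factors known to act on BH3-only genes, 1 rose and 2 fell with BTZ. Over all genes the shares called were 18.6% with BTZ, 10.8% with IBR, 7.06% for IBR_CLF against CLF and 1.15% with YM155. ATF3, a stress-induced factor, rose by 2.38 ± 0.77 (limma, adjusted p = 0.024), and E2F1, a cell-cycle factor, was at -2.45 ± 0.32 and TP73 at -2.25 ± 0.41. With IBR, ATF4, which drives the amino-acid and stress response, rose (1.00 ± 0.31), and E2F1, TP73 and MYC fell (-1.72, -1.78 and -1.75). With IBR_CLF against CLF, 3 rose, ATF3 (2.86), ATF4 (0.96) and DDIT3, which encodes CHOP, a partner of ATF4 (2.21), and 2 fell, E2F1 (-0.99) and TP73 (-1.39). Of 12 other genes of the DNA damage and stress response, 0 rose and 3 fell with BTZ: CDKN1A (-0.96 ± 0.26), FDXR (-1.60 ± 0.45) and AEN (-1.31 ± 0.33). With IBR, 2 rose, the cytokine gene GDF15 (4.35 ± 0.81) and the death receptor gene TNFRSF10B (0.84 ± 0.28), and 0 fell. TNFRSF10B was the 1 pathway gene called with YM155 (1.50 ± 0.33, adjusted p = 0.014).

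Between lines, CDKN1A, which encodes a cell-cycle inhibitor, had a median of 326 nuclear CPM in Z138 against 91.6 in JEKO-1 and 137 in MINO-P. In Z138 against JEKO-1, 7 of those 12 stress-response genes were higher and 1 lower, where 54.5% of all genes were called. MDM2 was at 1.92 ± 0.23 (limma, adjusted p = 6.7e-10), and BBC3, BAX and PMAIP1 were not called. In MINO-VR against MINO-P, where 23.5% of all genes were called, 0 of 6 protective BCL2 family genes were. BNIP3, a BH3-like mitophagy gene, was lower (-0.63 ± 0.14). BCL2L13 was higher (0.55 ± 0.12). Of the 12 stress-response genes, FAS, a death receptor gene (0.75 ± 0.23), and TNFRSF10B (0.28 ± 0.10) were higher and ZMAT3 (-0.74 ± 0.18) was lower.

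Likeness was measured as Pearson's r of log2 levels over the 37 groups of line and treatment, each centred on its line, among 11047 genes with a mean of at least 5 nuclear CPM. The points share libraries, scaling and controls, so these are descriptions. The genes most like PMAIP1 were CSGALNACT2 (r = 0.72), RNF6 (0.69) and YIPF6 (0.67), and those most like HRK were CAMKK1 (0.78), KIFC3 (0.76) and DUSP16 (0.72). BBC3 was followed by NAIF1 (0.74), NFKBIL1 (0.73) and AKAP8L (0.72). BIK went with ATP5MF (0.81), GCSH (0.79) and DTD1 (0.78), and BMF with MARF1 (0.88), MEGF9 (0.84) and ADA2 (0.83). BAD went with TFPT (0.86), TPGS1 (0.86) and MAP2K2 (0.85), and BID with MRPS16 (0.77), ATG10 (0.74) and XXYLT1 (0.73). The effector BAX had ATP5IF1 (0.86), SIGIRR (0.80) and SMIM20 (0.78), and BAK1 had GPKOW (0.84), TACO1 (0.80) and SHARPIN (0.80). Among the members themselves, the highest r was that of BAD and BAK1 (0.78), both listed at 0 in JEKO-1 BTZ replicate 3, then PMAIP1 and HRK (0.45). The lowest were BMF with BAD (-0.59) and BIK with HRK (-0.54).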

How the data were processed

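The deposited table gave the authors' values as log2(CPM + 1) for 56 poly-A libraries, checked by undoing the log2, after which each library summed to 1000000. The submitters' processing notes name Partek and hg38. The aligner, counter, annotation and strand are not given in the sources used here. Mitochondrially encoded genes (15) were left out and libraries rescaled to 1000000, because their share differed widely. An unnamed entry (at most 0.00077% of a library) was dropped. Depth was recovered from steps of the low values, of which 77.9% to 90.3% came out whole (tolerance 0.05 reads), so no count model was fitted. The floor of 3 reads was 0.146 to 2.18 nuclear CPM, for counting error only.

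Groups (37 of line and treatment, of which 22 of 1 library, 11 of 2 and 4 of 3) came from the labels. Replicate numbers only name libraries. The test was limma 3.58.1 under R 4.3.3, its trend option on, applied to log2(nuclear CPM + 1). Genes needed 1 CPM in 2 or more libraries, and p-values were Benjamini-Hochberg adjusted over all genes tested and called at 0.05. Such fold changes understate low genes. Treatments and lines came from 1 model over 56 libraries with treatment, line and library series. MINO-VR against MINO-P used shared treatments, and Z138 was fitted alone too. Differences between lines came from a model with 1 mean per group, where lone libraries are assumed to vary like the others. The line tests for YM155 and for CLF added to IBR, the averaging of 8 name pairs and the lengths from basic transcripts were chosen after seeing the data. Exon lengths are unions over all transcripts in GENCODE 29. The script was tested on simulated data.

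In Z138, deviations of the name suffix A correlated between all 5 pairs of libraries (r = 0.24 to 0.62). The suffix entered as a replicate block in an alternative only, and the fits as reported leave it out. The members, lists and tests were chosen with earlier results of these data known. The naming rule took all 9 members in every comparison and the pathway genes called. The text follows it in part: it gives the members with the smallest p or the clearest pattern by value and others by range, and pathway genes for the main comparisons alone. Some genes of these and the marker lists are not reported here. Alternatives were scaling, filter, pseudocount, series term, lines, name pairs, block, array weights and left-out libraries.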

Additional observations from a re-analysis of the deposited data

How the results depend on the processing

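Each member's fold change was recomputed in 6089 alternatives over all comparisons. None reversed a called direction, 5934 kept direction and call, 85 lost a call and 70 gained one, and in 386 of those that kept it the sign changed with neither value called. The number of members called stayed within 1.5 times in 636 alternatives and moved in 43. The cause of these moves was not tested. The share of all genes called under the same setting stands after each count. With CPM as deposited, the count was 4 for BTZ_CLF against CLF (40.6% of all genes; 2 and 16% as reported), 5 for Z138 against JEKO-1 (57.5%; 3 and 54.5%) and 3 for CLF added to IBR between the 4 lines (27.3%; 0 and 3.22%). Without the series term it was 2 for IBR against CON (17.9%; 1 and 10.8% as reported) and 1 for IBR_CLF against CLF (11.7%; 0 and 7.06%). In JEKO-1 and Z138 only it was 0 for IBR against CON (1.16%) and 0 for BTZ_CLF against CLF (3.27%), where only JEKO-1 had BTZ_CLF. Without MINO-P it was 0 for IBR against CON (4.63%) and 1 for BTZ_CLF against CLF (8.6%), without JEKO-1 1 for BTZ against CON (18.6%, where 3 as reported had the same share) and 1 for BTZ_CLF against CLF (14.5%), and without Z138 0 for IBR against CON (5.76%). With name pairs averaged, the counts were 1 for BTZ against CON (14.3%), 0 for IBR against CON (4.36%), 1 for BTZ_CLF against CLF (9.66%) and 1 for JEKO-1 against MINO-P (34.3%; 3 and 39.1% as reported). With only the 8 pairs ending in a averaged they were 1 for BTZ_CLF against CLF (10.4%) and 1 for JEKO-1 against MINO-P (33.9%). With a mean of at least 5 CPM it was 1 for IBR_CLF against CLF (12.1%), and with a pseudocount of 0.1 it was 0 for IBR against CON (9.21%). Array weights gave 3 for IBR against CON (29.4%), 1 for IBR_CLF against IBR (3.46%), 2 for IBR_CLF against CLF (23.7%), 7 for BTZ_CLF against CLF (39.8%), 1 for BTZ_YM155 against YM155 (7.03%), 6 for JEKO-1 against MINO-P (46.5%) and 5 for MINO-VR against MINO-P (34.1%). They also gave 4 for the BTZ response (8.09%), 1 for the YM155 response (7.35%) and 2 for CLF added to IBR (16%) between the 4 lines. Without libraries over 50% mitochondrial the counts were 1 for BTZ against CON (19.8%), 2 for IBR against CON (13.9%), 0 for BTZ_CLF against CLF (8.23%) and 3 for the BTZ response between the 4 lines (26.8%). Leaving out 1 library gave 1 to 4 for BTZ against CON, 0 to 2 for IBR against CON, 1 to 3 for BTZ_CLF against CLF, 0 to 1 for IBR_CLF against CLF and 0 to 1 for CLF added to IBR between the 4 lines. Over all genes, leaving out 1 library moved the number called from 1851 to 1081 for IBR against CON (without Z138 CON replicate 2) and from 50 to between 21 (without Z138 CON replicate 2) and 292 (without JEKO-1 BTZ replicate 3) for the BTZ response between the 4 lines. For BTZ_YM155 it moved from 82 to between 11 (without MINO-P BTZ_YM155) and 184 (without Z138 BTZ) against BTZ, and from 95 to 11 (without MINO-P BTZ_YM155) against YM155. The suffix as a replicate block changed no call of a member. IBR_CLF against CLF then called 754 genes in place of 1214. No count model was run, and with all name pairs averaged Z138 alone had no residual degrees of freedom. BIK and HRK rest on few reads, so their low values are the least precise. With exon lengths from the basic transcripts, the untreated level per kilobase of BAX (40.5) and BAD (19.8) moved by more than 1 SD, and those of the other 7 members by less.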
